A study of Mus musculus with 8 samples.

Results

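The genes described here encode components of perineuronal nets: the lecticans Acan, Bcan, Ncan and Vcan, the link proteins Hapln1, Hapln2 and Hapln4, the tenascins Tnr and Tnc, and the hyaluronan synthase Has3. They were chosen by gene symbol, and all 10 were found among the 56576 genes of the deposited table. Each of them passed the filter on low values, by which the mean over the libraries of 1 genotype or the other had to reach 10 normalized counts and which 31171 genes passed. The study profiled ribosome-bound RNA of cortical synapses from interneurons born in the medial ganglionic eminence (MGE), using RiboTag mice in which Cre adds an HA tag to the ribosomal protein Rpl22. Synaptosomes, pinched-off synaptic terminals with attached postsynaptic material, were prepared from the cerebral cortex at postnatal day 15 (P15), and RNA was recovered with antibodies to HA. The 4 control libraries came from Lhx6-Cre;Erbb4+/+;Rpl22HA/HA mice and the 4 mutant libraries (conditional Erbb4 mutants) from mice with both Erbb4 alleles floxed, Lhx6-Cre;Erbb4F/F;Rpl22HA/HA. All animals therefore carried Lhx6-Cre and were homozygous for Rpl22HA, so the groups differed by label in Erbb4, which encodes a neuregulin receptor. Lhx6-Cre acts in the MGE lineage as a whole, which holds both parvalbumin (PV+) and somatostatin (SST+) interneurons, and the deletion was not limited to the synapse or to either class.

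Perineuronal nets are lattices of extracellular matrix that condense around the soma and proximal dendrites of certain neurons, in the cortex mainly PV+ interneurons, during postnatal maturation. Hyaluronan chains, spun out at the plasma membrane by hyaluronan synthases, form the backbone; lecticans, which are chondroitin sulfate proteoglycans, bind to it through their N-terminal domain, link proteins lock this bond, and tenascin-R crosslinks the lecticans at their other end. Several of these components are also made by astrocytes, oligodendrocyte precursors or oligodendrocytes, and are shed into the loose matrix between cells. The measurements below are of ribosome-bound RNA and not of the deposited matrix.

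The libraries held between 51010687 and 80226984 reads on genes. The study's methods describe the 4 libraries of each genotype as biological replicates. A supplementary legend of the study mentions sequencing batches, to which the labels do not assign libraries. Over all genes, mutant replicates 4 and 5 were the most alike pair (mean chi-square per gene of 27.4), followed by mutant replicates 2 and 3 (47.4), with 251 to 275 between these pairs. Control replicates 4 and 5 (115) and control replicates 1 and 3 (193) were likewise closer to each other than across (266 to 401). By this measure the libraries did not divide in the same way between genotypes. Control replicate 4 was nearer to mutant replicates 2 and 3 (84.2 and 93.4) than to mutant replicates 4 and 5 (217 and 228). Log2 deviations from the genotype means did divide alike, but with weak correlations. Such deviations cancel within a genotype, so positive correlations with some libraries bring negative ones with the rest. The deviations of control replicates 1 and 3 correlated at 0.023 to 0.10 with mutant replicates 2 and 3. With mutant replicates 4 and 5 they correlated at -0.12 to -0.029. For control replicates 4 and 5 the correlations were -0.075 to -0.062 and 0.082 to 0.098. Whether these sets are batches is not known. Erbb4, the gene deleted, was called lower in mutants at 1410 ± 321 normalized counts, next to 3589 ± 1614 in controls (SD, n = 4 each; log2 fold change -1.25, limma adjusted p = 0.58), and control replicate 1, at 1640, lay within the mutant range. Lhx6 and Rpl22 did not pass the test, with log2 fold changes of -0.69 and -0.47. The summed normalized counts of 10 MGE interneuron markers ranged from 55524 to 447891 in controls, an 8.07-fold range, and from 18760 to 179551 in mutants. Most of this sum was Sst, with a control mean of 170457 in 217947. Among other markers, controls ran from 730 to 5896 for Pvalb, from 701 to 1781 for Lhx6 and from 1298 to 1479 for Sox6. Sums of other panels also follow their highest genes, such as Slc17a7 for excitatory neurons (109118 in 135579) and Mbp for oligodendrocytes (302861 in 397248, control means). Markers of excitatory neurons, astrocytes, oligodendrocytes, endothelial cells and microglia were also well above 0 in every library, and only Nkx2-1, a progenitor factor of the MGE list, was at or near 0 throughout. In such bulk libraries, fewer cells or synapses of a type and less RNA in each cannot be told apart.

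All 10 net genes had lower fitted values in mutants than in controls, with a median log2 fold change of -0.37, while 46.6% of all genes tested lay below 0 and their median was 0.06. Hapln4 was the only one called, by an unadjusted limma p of at most 0.05 together with a fold of at least 1.5, and it was lower in mutants. Over the whole table, 3.17% of genes were called lower and 3.98% higher. None of the 10 had an adjusted p under 0.05 with limma, edgeR or DESeq2 (1 had an unadjusted p under 0.05 with each of these tools), and 0.0449% of all genes were lower at that adjusted threshold with limma. For Bcan and Has3 the 4 mutant values lay below the 4 control values without overlap, an arrangement found for 2.17% of genes.

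**Figure D1:**
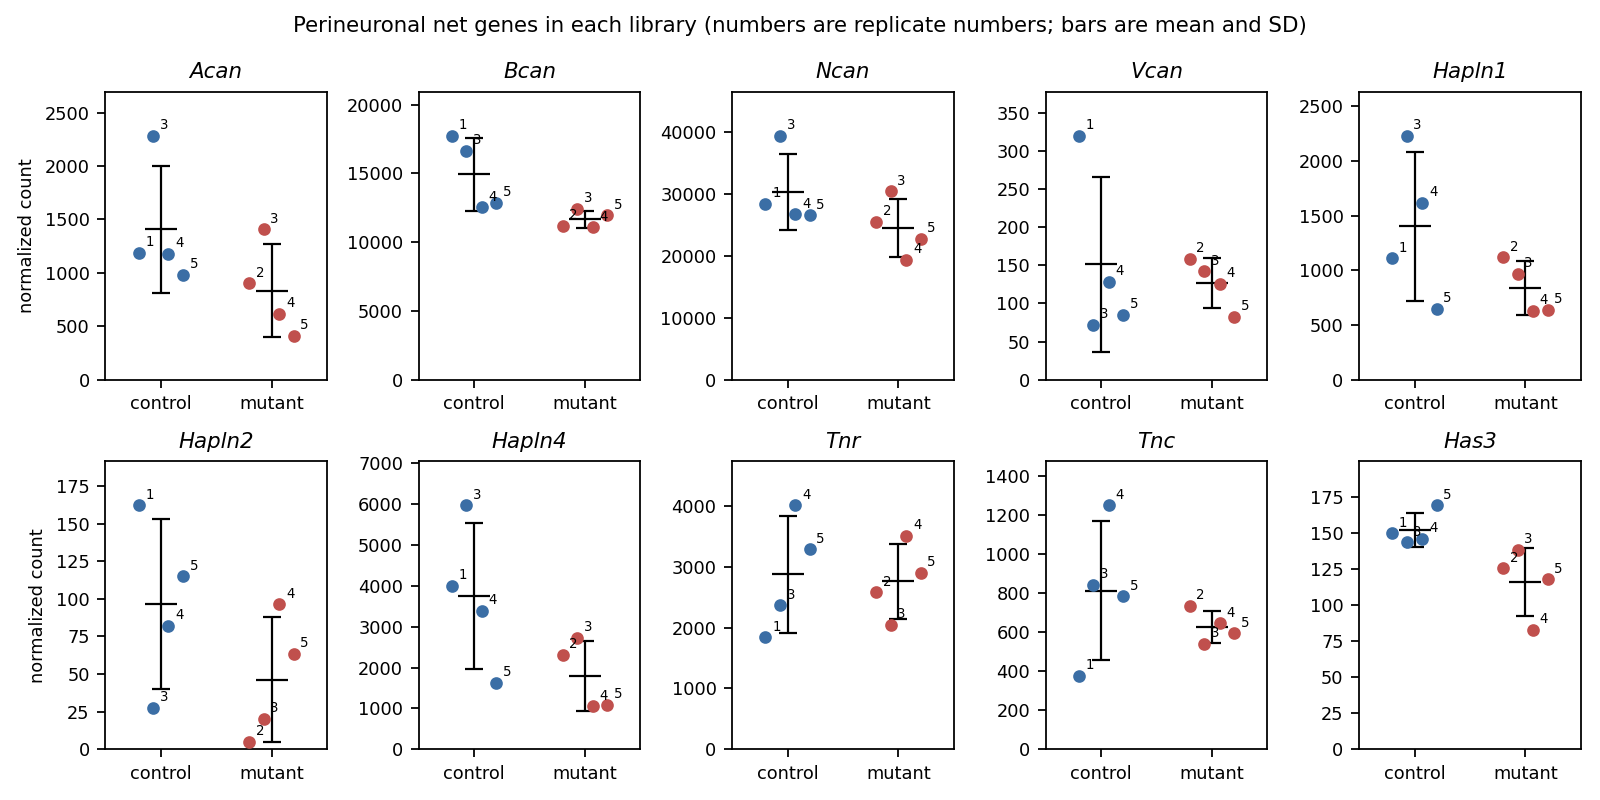
Normalized count (vertical axis, starting at 0, with a scale of its own for each gene) of the 10 net genes in the 4 control (blue) and 4 mutant (red) libraries; each point is 1 library with its replicate number, and the bars give the mean and SD. Control replicate 3 is the highest library for Acan, Ncan, Hapln1 and Hapln4, and the genotypes are separate only for Bcan and Has3.

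The lecticans are the proteoglycans of the net. Acan encodes aggrecan, the lectican most closely tied to nets around PV+ cells (chromosome 7, 79053226 to 79115099, plus strand; positions of genes are on mm10, as deposited). Its normalized counts were 1186, 2285, 1176 and 984 in control replicates 1, 3, 4 and 5, and 901, 1409, 615 and 413 in mutant replicates 2, 3, 4 and 5. Mutant replicates 2, 4 and 5 lay below every control, whereas mutant replicate 3 lay above all controls but the highest. On the log2 scale the mutants differed by -0.82 (SE 0.39, 95% interval -1.68 to 0.04), which did not pass the test (limma adjusted p = 0.58). The value was -0.56 without control replicate 3, the highest library. Acan was called lower when control replicate 5 (-0.96) or mutant replicate 3 (-1.12) was left out.

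Bcan encodes brevican, a lectican of the adult brain made by glia as well as neurons (chromosome 3, 87987531 to 88000356, minus strand). It reached 17743, 16623, 12538 and 12834 normalized counts in the controls and 11199, 12398, 11087 and 11957 in the mutants. The groups did not overlap, but the gap between the lowest control and the highest mutant was small, and control replicates 1 and 3 set most of the difference in means. The log2 fold change was -0.34 (SE 0.19, 95% interval -0.76 to 0.07; limma adjusted p = 0.58). It lay between -0.42 and -0.25 when any 1 library was left out, without a call. Bcan was also the least variable member among mutants, with a coefficient of variation of 5.37% compared with 17.7% among controls.

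Ncan encodes neurocan, a lectican abundant in the developing brain (chromosome 8, 70093085 to 70120844, minus strand). Its normalized counts were 28454, 39438, 26713 and 26542 in controls and 25455, 30457, 19406 and 22764 in mutants. Replicate 3 was the highest library of each genotype, and mutant replicate 3 lay above the other 3 controls. Its log2 fold change of -0.30 (SE 0.23, 95% interval -0.80 to 0.19) did not pass the test (limma adjusted p = 0.65), and it was -0.17 without control replicate 3.

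Vcan encodes versican, a lectican found widely outside the nervous system and, in brain, in oligodendrocyte precursors (chromosome 13, 89655310 to 89742513, minus strand). Its values were low, at 320, 71.9, 128 and 85.3 in controls and 159, 142, 126 and 82.4 in mutants. Control replicate 1 alone raised the control mean, and the mutant values lay within the control range. A log2 fold change of -0.03 had an interval from -1.20 to 1.15 (limma adjusted p = 0.99), and it turned to 0.42 without control replicate 1, the highest library.

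Acan was set against the other lecticans within each library as a log2 ratio of its normalized count to the mean of Bcan, Ncan and Vcan on the log2 scale. This ratio averaged -1.52 ± 0.64 in controls and -2.12 ± 0.57 in mutants (SD, n = 4 each), a difference of -0.60 (SE 0.43). The genotypes overlapped, and the difference did not pass an exact two-sided permutation test (p = 0.26, adjusted p = 0.39 over the 3 ratios compared, the smallest p that 4 against 4 libraries allow being 0.029). Vcan, though low, weighed as much in the ratio as Bcan and Ncan. Its log2 deviation from its own mean was 1.35 in control replicate 1 and -0.79 in control replicate 3. These controls had the lowest (-2.20) and highest (-0.67) ratios.

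The link proteins hold lecticans on hyaluronan. Hapln4, also known as brain link protein-2 (chromosome 8, 70083457 to 70090862, plus strand), fell in mutants under the threshold given above. It had 4001, 5976, 3388 and 1634 normalized counts in control replicates 1, 3, 4 and 5 and 2305, 2726, 1048 and 1085 in mutant replicates 2, 3, 4 and 5. Control replicates 1, 3 and 4 lay above all mutants, and control replicate 5 lay below mutant replicates 2 and 3. The means were 3750 ± 1791 and 1791 ± 854 (SD, n = 4 each), a log2 fold change of -1.05 (SE 0.43, 95% interval -1.99 to -0.12) or a fold of 0.482 (limma adjusted p = 0.58). On whole reads recovered from the normalized values, Hapln4 was again the only net gene called, by the same thresholds in edgeR (log2 fold change -1.03, adjusted p = 0.57), where 3.87% of genes were called lower, and in DESeq2 (-1.04, adjusted p = 0.35), where 5.05% were.

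The call for Hapln4 depended on single libraries. It was lost without control replicate 1 (-0.97), 3 (-0.78) or 4 (-1.05) and without mutant replicate 4 (-0.84) or 5 (-0.86), where the unadjusted limma p was over 0.05. It was kept without control replicate 5 (-1.40), mutant replicate 2 (-1.22) or mutant replicate 3 (-1.30). The direction was the same in all 8 of these fits. In the set of control replicates 1 and 3 with mutant replicates 2 and 3, the log2 difference between genotypes was -0.96 for Hapln4, -0.55 for Acan and -0.59 for Hapln1, and in the set of replicates 4 and 5 it was -1.14, -1.09 and -0.69. The set was also put as a term in the limma model, an alternative added after the data were seen. Hapln4 (limma adjusted p = 0.053) and Acan (limma adjusted p = 0.16) were then called lower, where 5.84% of all genes were. No label gives these sets, which follow the likeness of these same libraries, so this fit is no separate test of the difference. Of the 10 net genes, 8 lay below 0 in the first set, Tnr (0.14) and Tnc (0.16) being the exceptions, and 10 in the second.

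Hapln1 encodes the link protein first known from cartilage, which neurons with nets also make (chromosome 13, 89539796 to 89611832, plus strand). Its normalized counts were 1110, 2233, 1616 and 648 in controls and 1119, 970, 630 and 639 in mutants. Control replicates 3 and 4 lay above all mutants, and control replicates 1 and 5 fell within the mutant range. The difference was -0.64 on the log2 scale (SE 0.37, 95% interval -1.46 to 0.18; limma adjusted p = 0.59). It was called lower (-0.97) when control replicate 5 was left out.

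Hapln2, or brain link protein-1, is known from myelinating oligodendrocytes and nodes of Ranvier (chromosome 3, 88021750 to 88027592, minus strand). It was measured at 162, 27.7, 82.1 and 115 in controls and at 5.13, 20.3, 96.4 and 63.5 in mutants. Mutant replicates 2 and 3 lay below all controls, the lowest of them resting on 6 reads, and the other two mutants were within the control range. Its log2 fold change of -1.45 in the main test was the largest in size among the members and also the least certain. It had an SE of 0.94 and an interval from -3.51 to 0.62 (limma adjusted p = 0.61). With edgeR (-1.05) and DESeq2 (-1.07) it was about the size of that of Hapln4. Under other settings that kept all libraries it ranged from -2.53 to -0.35. It ranged from -2.01 to -0.68 when 1 library was left out, the latter without mutant replicate 2.

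The log2 ratio of Hapln1 to Hapln4 within each library averaged -1.42 ± 0.32 in controls and -1.01 ± 0.35 in mutants (SD, n = 4 each). The difference of 0.41 (SE 0.24) did not pass the exact two-sided permutation test (p = 0.17, adjusted p = 0.39).

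Neither of the tenascins was called. Tnr encodes tenascin-R, the crosslinker of lecticans in the net (chromosome 1, 159523768 to 159925292, plus strand). Tnr had 1842, 2369, 4016 and 3290 normalized counts in controls and 2583, 2048, 3514 and 2901 in mutants. All mutant values lay inside the control range, and the log2 fold change of -0.02 (SE 0.27) had an interval from -0.62 to 0.57 (limma adjusted p = 0.98). It turned positive without control replicate 4 (0.16), control replicate 5 (0.06) or mutant replicate 3 (0.11).

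Tnc encodes tenascin-C, a tenascin of developing and injured tissue (chromosome 4, 63959785 to 64047015, minus strand). Tnc had 376, 844, 1252 and 785 normalized counts in controls and 735, 540, 646 and 594 in mutants. Control replicates 3, 4 and 5 lay above every mutant and control replicate 1 lay below every mutant. Its log2 fold change was -0.26 (SE 0.34, 95% interval -1.01 to 0.49; limma adjusted p = 0.80). Without control replicate 1 it was -0.59 and was called lower, and without control replicate 4, the highest library, it was -0.01. The log2 ratio of Tnr to Tnc was 1.88 ± 0.36 in controls and 2.12 ± 0.30 in mutants (SD, n = 4 each), a difference of 0.23 that did not pass the exact two-sided permutation test (p = 0.40, adjusted p = 0.40).

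Has3 encodes one of the hyaluronan synthases (chromosome 8, 106870241 to 106882902, plus strand). Has3 had 150.0, 144, 146 and 169 normalized counts in controls and 126, 138, 83.0 and 118 in mutants. Every mutant was below every control, and the controls were close together, with a coefficient of variation of 7.69%. The log2 fold change was -0.41 (SE 0.38, 95% interval -1.24 to 0.43; limma adjusted p = 0.71), the error being partly borrowed from other genes of similar level. It lay between -0.50 and -0.26 when any 1 library was left out, without a call.

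**Figure D2:**
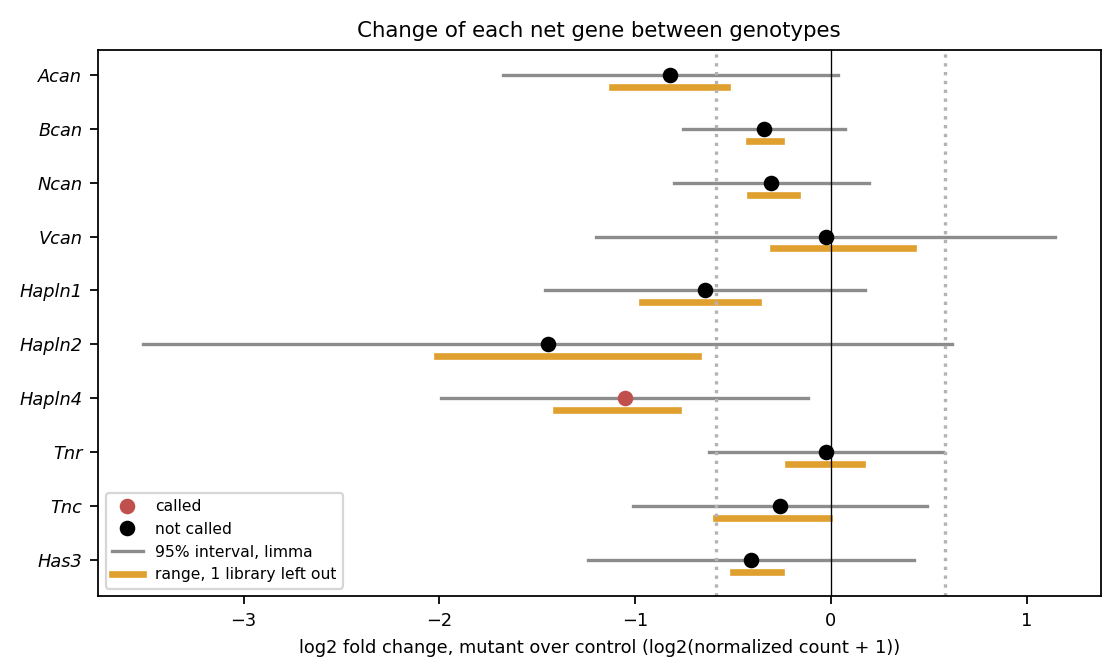
Log2 fold change, mutant over control, of log2(normalized count + 1) for the 10 net genes (horizontal axis). Points are the limma estimates (red, called), grey lines the 95% intervals, orange bars the range when 1 library is left out, and dotted lines mark the 1.5-fold threshold; the interval of Hapln4, -1.99 to -0.12, is the only one that lies wholly below 0.

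Levels were compared between the net genes after division by the length of the gene's exons in GENCODE, as normalized counts per kilobase. In controls, Ncan (4209 ± 856, SD, n = 4) and Bcan (3675 ± 649) were the highest, with overlapping ranges. Hapln4 followed at 956 ± 456, apart from both Bcan above it and Hapln1 (237 ± 115) below it. Hapln1, Tnr (224), Acan (188), Tnc (105), Hapln2 (40.8) and Has3 (23.9) formed a descending series in which each range overlapped the next. Vcan was lowest at 10.5, below the range of Has3. The authors counted reads on constitutive regions only, whose lengths are not used here, so this order is approximate.

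The net genes did not share a single pattern over the 8 libraries. Patterns were compared as log2 deviations from each gene's mean, and likeness as the root mean square (RMS) difference between 2 such patterns, a description over 8 libraries that share preparation, depth and cell makeup within each library. Acan, Hapln4 and Hapln1 were high in control replicate 3 and low in mutant replicates 4 and 5, and Hapln4 was within 0.35 of Acan and 0.36 of Hapln1 by this measure. Bcan and Ncan were the closest pair of members (0.20), followed by Ncan and Has3 (0.23). Tnr and Tnc resembled each other (0.31), both being lowest in control replicate 1 and highest in control replicate 4. Hapln2 and Vcan followed none of these.

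These groupings were set beside marker panels of cell types, none of which contains a net gene. Hapln4 and Acan were nearest to the mean pattern of 10 PV+ interneuron markers, at RMS differences of 0.16 and 0.26, and Hapln1 was at 0.34 from both the PV+ panel and the panel of all MGE interneurons. The MGE panel was at 0.36 from both Hapln4 and Acan, and the SST+ panel at 0.37 from Hapln4, 0.49 from Acan and 0.62 from Hapln1. The PV+ panel ran from 1.46 in control replicate 3 to -1.32 in mutant replicate 5. Its summed normalized count was 25398 to 112621 in controls and 13765 to 40392 in mutants, 4 of its 10 genes were called lower (3.17% of all genes were), and its median log2 fold change was -1.06, near that of Hapln4 (-1.05) and below that of Acan (-0.82). In the panel of all MGE interneurons, 3 of the 9 genes tested were called lower (median -0.93), and in the SST+ panel 1 of 8 was (median -1.26; sums of 77695 to 599263 in controls and 23532 to 243255 in mutants).

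When the mean of the MGE panel in each library was added to the model, the log2 fold change of Hapln4 became -0.43, that of Acan -0.31 and that of Hapln1 -0.15, none of them called. Hapln2 (-2.53) was the only net gene called lower in that fit, where 2.14% of genes were. The part of interneuron content in the lower values of Hapln4, Acan and Hapln1 cannot be told apart from genotype, since the panel itself was lower in mutants.

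The remaining members lay nearer to panels of other cells. Bcan was nearest to astrocytes (0.13), whose sums of 9 markers were 136052 to 240514 in controls and 143531 to 161484 in mutants, with no gene called and a median log2 fold change of -0.11. Ncan (0.19) and Has3 (0.25) were nearest to oligodendrocyte precursors, with sums of 28659 to 37919 in controls and 27996 to 30265 in mutants, none of 7 genes called and a median of -0.39. Tnr (0.33) and Tnc (0.43) were nearest to excitatory neurons, with sums of 114053 to 152289 in controls and 109937 to 136770 in mutants, 1 of 8 genes called lower and 1 higher, and a median of -0.15. These panels varied little between libraries, so that any gene with small deviations lies near them.

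For Hapln2, the oligodendrocyte panel was nearest, but at an RMS difference of 1.36 that shows no likeness. That panel summed to 229579 to 673027 in controls and 202592 to 286906 in mutants. Of its 9 genes, 3 were called lower (3.17% of all genes were), with a median log2 fold change of -0.61. Vcan was at 0.61 from its nearest panels, astrocytes and microglia (microglia sums of 23493 to 46403 in controls and 24323 to 29605 in mutants, none of 8 genes called, median -0.44). Markers of endothelial and mural cells ran the other way from the net genes, with 5 of 9 called higher (3.98% of all genes were), a median of 0.69, and sums of 144304 to 247279 in controls and 240672 to 260043 in mutants. The part of these cells in the values of the net genes was not tested.

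**Figure D3:**
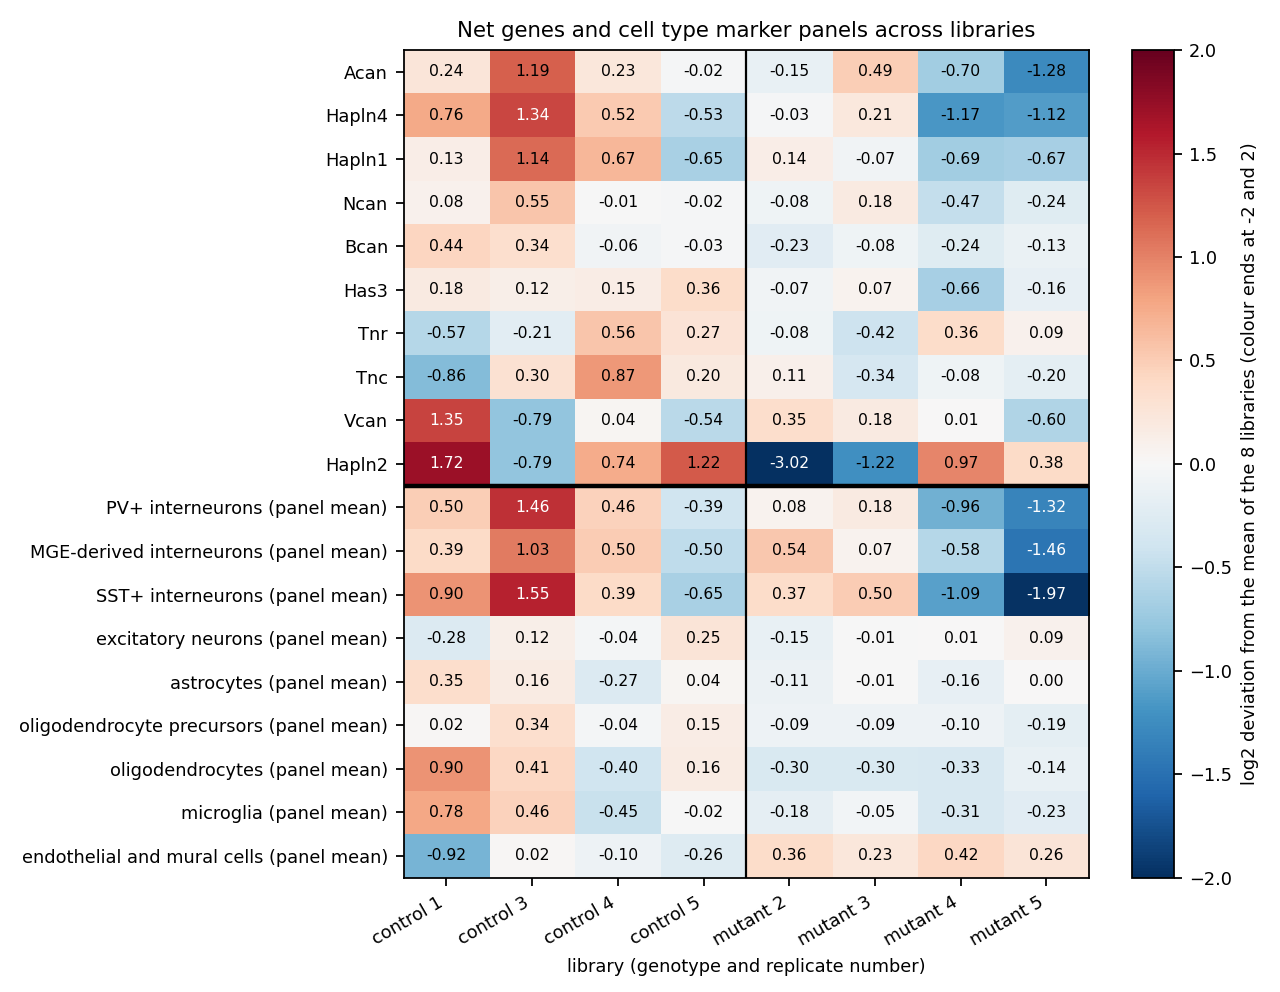
Log2 deviation of each library (columns) from the mean of the 8 libraries for the 10 net genes (upper rows) and for the mean of each cell type marker panel (lower rows), from blue (below the mean) through white to red (above); colours end at -2 and 2. Acan, Hapln4 and Hapln1 share the high value in control replicate 3 and the low values in mutant replicates 4 and 5 with the PV+ panel (1.46, -0.96 and -1.32), the SST+ panel (1.55, -1.09 and -1.97) and the MGE panel (1.03, -0.58 and -1.46).

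Among the 19136 genes that averaged 100 normalized counts or more, those with patterns most like that of Acan were Elfn1 (RMS difference 0.13), Tmem185b (0.16), Kcns3 (0.18), Shisa8 (0.19) and Inafm1 (0.21). Elfn1 encodes a postsynaptic adhesion protein known from SST+ interneurons and is one of the SST+ markers used here, Kcns3 a potassium channel subunit known from PV+ interneurons, and Shisa8 an auxiliary protein of AMPA receptors. Elfn1 had 5650, 12951, 6778 and 5187 normalized counts in controls and 5314, 6827, 3150 and 2542 in mutants, with control replicate 3 highest and mutant replicate 5 lowest, as for Acan. Of the other net genes, Hapln4 came 418th, Hapln1 961st and Ncan 1551st in this order.

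The wider machinery of the net was described with 66 genes in 7 lists: other hyaluronan genes, enzymes of chondroitin sulfate synthesis, chondroitin sulfotransferases, matrix proteases, their inhibitors, other proteoglycans and net ligands, and matrix receptors. Of these, 63 were matched by symbol and 60 passed the filter. Chst13, Mmp3 and Otx2 did not pass it, and Hyal1, Hyal3 and Nptxr were not matched. There were 4 genes called, 2 lower and 2 higher, or 6.67% of those tested, next to 7.15% of all genes called in either direction. The median log2 fold change of the 60 genes was -0.10, compared with -0.37 for the 10 net genes.

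Nptx2, which encodes a secreted pentraxin that gathers AMPA receptors at synapses on PV+ interneurons and is held in nets, had 3899, 3437, 2183 and 2016 normalized counts in controls and 1905, 1756, 1669 and 1720 in mutants. The groups did not overlap, and the log2 fold change was -0.65 (SE 0.24). Among the sulfotransferases, Chst12, one of the enzymes that sulfate chondroitin, was lower at -0.74 (SE 0.28), with 5874, 6482, 4119 and 3386 in controls and 3790, 3756, 2267 and 2111 in mutants. Control replicates 4 and 5 were the lower controls for both genes, and for Chst12 control replicate 5 fell below mutant replicates 2 and 3. Chst11, another of these enzymes, had a log2 fold change of -0.47 (95% interval -0.91 to -0.03), under the fold threshold.

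Both genes called higher belong to the lists of other hyaluronan genes and matrix proteases. Cemip2, which encodes a cell-surface protein implicated in hyaluronan degradation, had a log2 fold change of 0.82 (SE 0.33), from 2932, 6428, 7815 and 8204 in controls to 9371, 7534, 13689 and 12162 in mutants. Adamts9, a protease that cleaves aggrecan and versican, was higher by 0.83 (SE 0.29), from 807, 799, 1807 and 1213 in controls to 1495, 2157, 2273 and 1909 in mutants. The genotypes overlapped for both, mutant replicate 3 lying below 2 controls for Cemip2 and mutant replicate 2 below 1 control for Adamts9. The brain aggrecanases Adamts4 (0.20) and Adamts5 (-0.25) were not called. Of the same lists, Adamts8 (-0.80) and Cemip (-0.59) had lower values in mutants and were not called either. None of the 4 genes called had an adjusted p under 0.05 (adjusted p = 0.58 for each, limma). The endothelial and mural markers were also higher in mutants, with a median log2 fold change of 0.69, and their part in the values of Cemip2 and Adamts9 was not tested.

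The other genes of these lists did not pass the test. The median log2 fold change was -0.25 for the 9 other hyaluronan genes, -0.03 for the 12 enzymes of chondroitin sulfate synthesis, -0.01 for the 7 sulfotransferases, 0.20 for the 11 proteases, -0.22 for the 4 inhibitors, -0.18 for the 7 other proteoglycans and ligands, and -0.15 for the 10 receptors. Outside the genes called, the genotypes did not overlap for Timp2, an inhibitor of metalloproteinases (-0.47), and Rtn4r, a receptor for chondroitin sulfate and myelin proteins (-0.32), both lower, and for Dse, an epimerase of chondroitin chains (0.55), and Mmp14, a membrane-bound metalloproteinase (0.30), both higher. With Nptx2 these make 3 of 60 genes lower and 2 of 60 higher without overlap, next to 2.17% and 2.76% of all genes. Among the other hyaluronan synthases, Has1 had between 31.4 and 246 normalized counts, and Has2 was at 0 in 5 of the 8 libraries.

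**Figure D4:**
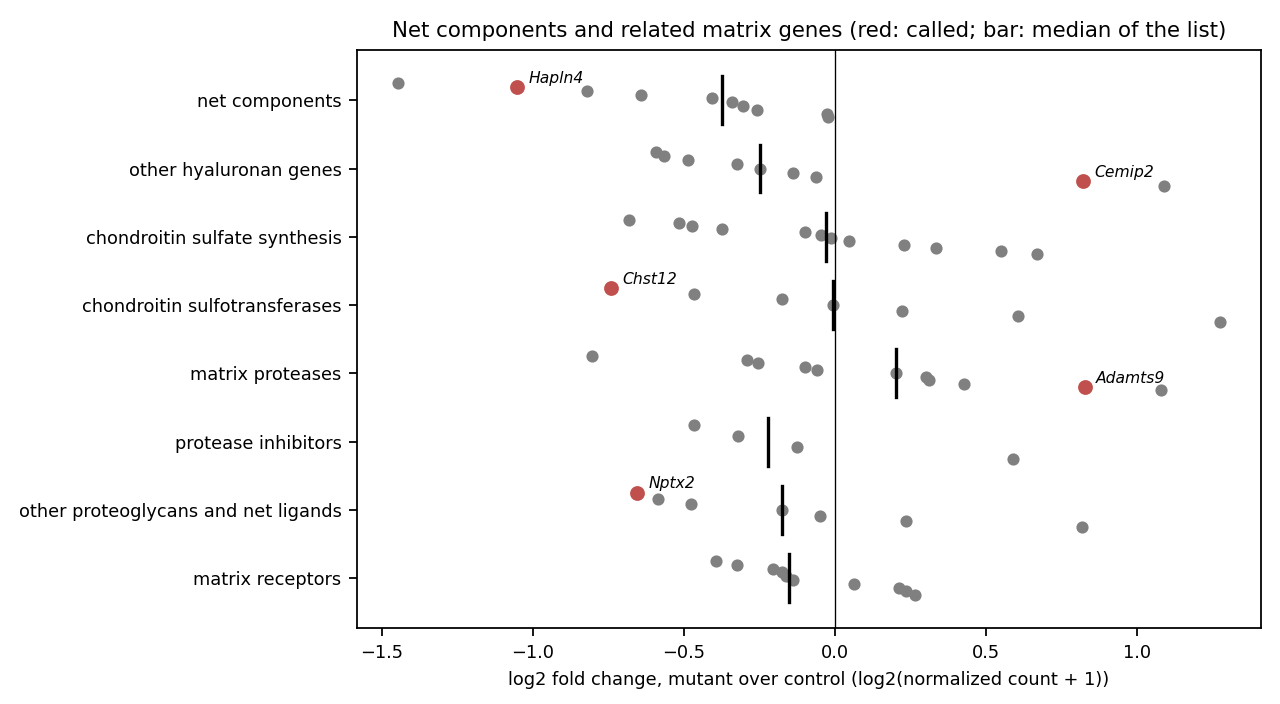
Log2 fold change, mutant over control, of log2(normalized count + 1) (horizontal axis) for the 10 net components and the genes tested in 7 related lists (rows); each point is a gene, red points with names are called, and the vertical bar is the median of the list. The net components all lie below 0 with a median of -0.37, and the proteases have a median of 0.20.

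The lecticans and link protein genes lie in neighbouring pairs. Ncan and Hapln4 are 2222 bases apart on chromosome 8 with their 3′ ends facing, Vcan and Hapln1 are 43477 bases apart on chromosome 13 in the same arrangement, and Bcan and Hapln2 follow each other on the same strand of chromosome 3 at 21393 bases. Acan lies 40 bases from Hapln3, which was not one of the net genes chosen and had a log2 fold change of -0.57 (SE 0.54, limma adjusted p = 0.72). Within pairs, the log2 fold change was -1.05 for Hapln4 and -0.30 for Ncan, -0.64 for Hapln1 and -0.03 for Vcan, and -1.45 for Hapln2 and -0.34 for Bcan; these differences were not tested. The deposited table gives Pik3r2 a span that covers Ncan and Hapln4, and the row Chtf8 // Derpc a span that covers Has3. Over all libraries, Pik3r2 averaged 25810 normalized counts, next to 27404 for Ncan and 2770 for Hapln4. The row Chtf8 // Derpc averaged 1981, next to 134 for Has3. Unnamed rows overlap Ncan, Tnr, Tnc, Vcan and Hapln1. Pik3r2 lies on the same strand as Ncan and on the opposite strand to Hapln4. Whether reads were counted by strand is not given in the sources used here, and strand could not separate Pik3r2 from Ncan. Reads shared with overlapping genes therefore cannot be told apart. Pik3r2 itself had a log2 fold change of 0.17.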

How the data were processed

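The authors aligned paired reads to mm10 with STAR 2.4.0, counted reads on constitutive regions of the Mouse Fast DB annotation and deposited DESeq2-normalized counts per gene (counts divided by library size factors, a signal that is not whole), 1 column per library. Here 100% of values were whole reads within 0.01 after division by the value of 1 read (for control replicate 4 and mutant replicate 5 that value is close to 1, so the check says little there), and edgeR 4.0.16 and DESeq2 1.42.0 were run on these recovered reads as alternatives. The main test was limma 3.58.1 in R 4.3.3 (empirical Bayes with trend) on log2(normalized count + 1), with Benjamini-Hochberg adjustment over the 31171 genes with a mean of at least 10 in a genotype. Fold changes are differences of means on this scale. For low genes they can lie above or below those of tools that work on reads. Hapln2 was at -1.45 here, at -1.05 with edgeR and at -1.07 with DESeq2. The thresholds for a call were those of the study's methods, a fold of 1.5 or more and an unadjusted p no higher than 0.05. The study applied them to DESeq2 results with another expression filter, and reported most of its differentially expressed genes as lower. Here limma called 3.17% of genes lower and 3.98% higher. With edgeR the shares were 3.87% lower and 3.44% higher, and with DESeq2 5.05% lower and 4.05% higher. Ratios were tested by exact permutation. The scripts were tested on simulated data. The text names all net genes, called genes of the related lists (at most 6 per list), label checks, and the 5 genes most like Acan. Related genes outside that rule (such as Timp2, Rtn4r, Dse, Mmp14, Chst11, Hapln3, Has1, Has2 and Pik3r2) were named after their values were seen. Members and lists were chosen with earlier results of these data known. All columns matched a sample by title, and no 2 libraries agreed within sampling noise. Intervals cover the spread between libraries.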

Additional observations from a re-analysis of the deposited data

Results flagged for a closer look

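Control replicate 3 stood apart from the other controls for 2 lecticans. Its normalized count was 2285 for Acan, where the other controls lay between 984 and 1186, and 39438 for Ncan, where they lay between 26542 and 28454. In both cases the gap to the nearest control, 0.845 and 0.852 of the whole range, exceeded Dixon's 95% critical value for 4 samples. Of 34 groups of 4 values looked at, 2 were marked in this way, and chance marks about 1 in 20 (1.7 of 34). The same library had the highest summed PV+ markers (112621) and MGE markers (447891). Without it, the log2 fold change was -0.56 for Acan and -0.17 for Ncan.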

How the results depend on the processing

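Of the values for single net genes under settings that kept all libraries, 106 kept their direction and side of the threshold, 2 lost a call, 7 gained one and 4 changed sign. The sign changed for Vcan with library weights (0.012), the replicate block (0.30) and the MGE marker mean as covariate (0.18), and for Tnr after quantile normalization (0.023). Leaving out 1 library moved Vcan between -0.29 and 0.42 and Tnr between -0.22 and 0.16. The number of net genes called, 1 and lower in the main test, was 0 without the variance trend, 3 lower with library weights (Acan, Hapln1 and Hapln4, where 5.24% of all genes were called lower), and 0 to 3, all lower, when 1 library was left out. It was 0 without control replicate 3 or 4 or mutant replicate 4 or 5, 2 without mutant replicate 3 and 3 without control replicate 5. With the MGE covariate the 1 gene called was Hapln2 in place of Hapln4. The count over the whole table, 2229, became 3630 with library weights, 1412 with the MGE covariate and 1194 to 3767 with 1 library left out. The 4 related genes called became 1 without trend, 10 with library weights, 8 with DESeq2, 1 with the MGE covariate and 1 to 11 with 1 library left out. The library set as a term follows the likeness of these same libraries and was added after the data were seen. With it, 2 net genes (both lower), 9 related genes and 3558 genes of the whole table were called. The causes were not tested.

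Replicate numbers 3, 4 and 5 occur in both genotypes. Same-numbered libraries had correlated deviations of 0.10, 0.098 and 0.082, and control replicate 5 correlated best with mutant replicate 4 (0.085), so the numbers were not taken to pair libraries. In a fit with the replicate block, to which control replicate 1 and mutant replicate 2 add nothing for lack of a partner, 4 net genes were called lower (Acan -0.96, Hapln1 -0.86, Hapln4 -1.14 and Tnc -0.67, where 5.51% of all genes were called lower) and 8 related genes were called. The 3 ratios were not called with a pseudocount of 0.1 or 10. They were -0.83 to -0.31 for Acan to the other lecticans, 0.27 to 0.57 for Hapln1 to Hapln4 and 0.10 to 0.37 for Tnr to Tnc with 1 library left out, and -0.87, 0.28 and 0.47 with the block, designs whose smallest exact p, 0.057 and 0.25, allows no call. Ratios were not computed under the other settings. Hapln2 had as few as 6 reads in a library.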
